A study of Mus musculus with 7 samples.

Results

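The genes described here are 40 genes of mitosis, the spindle and the kinetochore, chosen by name, with no threshold on measured values. They are 40 of 53379 gene IDs in the count tables. All 40 passed the filter on low counts, which kept 14610 genes, and each also passed on the control libraries alone, where the lowest value of any of them was 1.05 CPM (counts per 1000000 gene reads, scaled by TMM). The RNA was that of endometrial epithelium, the cells lining the uterine lumen and its glands, captured from digested mouse uteri with magnetic beads against EPCAM. Each of the 4 mutant libraries is 1 CD-1 mouse of 120 days with the genotype LtfCre 0/+; Brg1 fl/fl, in which Cre follows the lactoferrin gene Ltf and both alleles of Brg1 (gene symbol Smarca4), the catalytic subunit of SWI/SNF remodellers, are floxed. Each of the 3 control libraries holds cells of several wild-type CD-1 mice and was reused from previous work (first flow cell, per the labels), with neither Cre nor a floxed allele named for it and no age given in the sources used here. Genotype, library set and pooling therefore cannot be told apart, and neither can any difference in age. The sample labels name no stage of the oestrous cycle for any library. The part of cycle stage in the levels, and in how the single mice differ, was not tested. A p-value reflects only how much these single mice and these pools vary.

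Cells enter mitosis when cyclins A and B activate CDK1. Kinetochores then attach chromosomes to the spindle, a checkpoint delays anaphase until all are attached, and the anaphase promoting complex ends the arrest by marking cyclin B and securin for destruction. The transcripts of these genes peak together in G2 and M phase under FOXM1, B-MYB and the MuvB complex, so in a tissue their level is widely read as a measure of proliferation. The epithelium of the mouse uterus proliferates in response to oestrogen. In bulk libraries a smaller share of dividing cells and less mitotic RNA per cell cannot be told apart.

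Gene reads per library numbered 12436971 to 13364080 in mutants and 21372036 to 25862245 in controls, so that 3 reads, the floor used here, stand for 0.224 to 0.241 CPM and 0.116 to 0.140 CPM (counting error only). The lowest count of any of the 40 genes in any library was 5 reads. Smarca4 lay between 56.6 and 105.2 CPM in mutants and between 245 and 279 CPM in controls, so no library went against its label for the targeted gene (log2 fold change −1.64 ± 0.23 SE, edgeR adjusted p = 0.00967, and 0.00679 without mutant replicate 1). The summed level of 8 epithelial markers ranged from 6649 to 8714 CPM across mutants, against 13150 to 15140 CPM across controls, and 2 of the 8 were called lower. Mutant replicate 1 stands apart from the other mutants, with Ltf at 82.5 CPM against 1143 to 2019 CPM, and with unmapped reads at 6.70% against 4.24% to 5.15%. Controls had 2934 to 3679 CPM of Ltf, so every mutant lay below them. For Ltf the edgeR adjusted p was 0.274 with all libraries and 0.0277 without mutant replicate 1. Results are therefore given with and without mutant replicate 1.

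Mitotic transcripts were high in mutant replicates 2, 3 and 4 and low in mutant replicate 1. Summed over the 40 genes, mutant replicates 1 to 4 reached 454, 2467, 3504 and 1877 CPM, and the controls 792, 878 and 1339 CPM. The 4 mutants thus lay on either side of the controls. Their mean of 2076 ± 1273 CPM (SD, n = 4) was 2.07 times that of the controls at 1003 ± 294 CPM (SD, n = 3), a difference smaller than the spread between the mutants. Mutant replicates 2 to 4 together averaged 2616 ± 824 CPM (SD, n = 3). The SDs of the mutants are between single mice, and that of the controls is between pools of mice, so they are not alike.

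**Figure D1:**
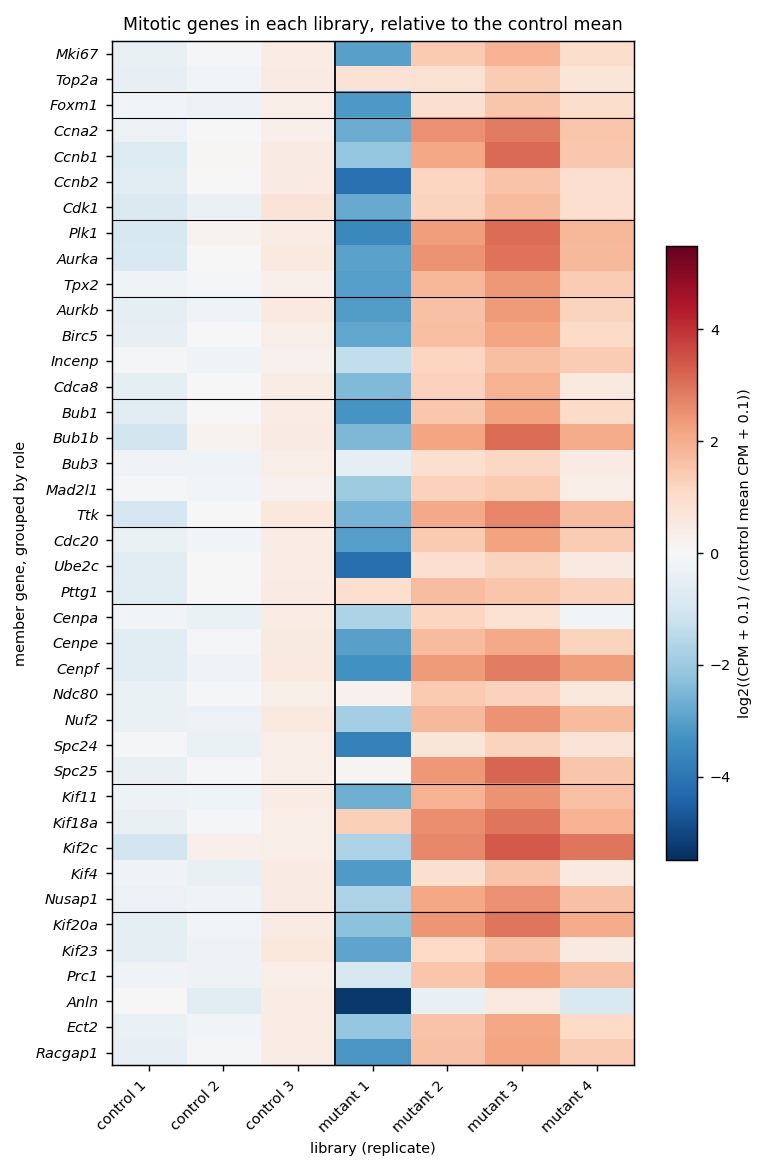
Level of each of the 40 genes (rows, grouped by role) in each library (columns), as the log2 ratio of CPM to the control mean with 0.1 CPM added to both. Red is higher and blue lower than the control mean; mutant 1 is below every control for 35 genes, and mutants 2 to 4 are all above every control for 37.

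The order of the libraries was similar for most of the 40 genes. Mutant replicates 2, 3 and 4 all lay above every control for 37 of the 40 genes (92.5%), against 23.6% of all tested genes. Mutant replicate 1 lay below every control for 35 genes (87.5%, against 40.4% of all tested genes). Both held for 32 genes (80.0%, against 4.70%), and for 27 genes the mutants also fell in the order 3, 2, 4, then the controls, then mutant replicate 1 (67.5%, against 2.45%). Control replicate 3 was the highest control for all 40 genes, against 39.9% of all tested genes. The genes outside the 32 were as follows. Top2a, Pttg1 and Kif18a were above every control in mutant replicate 1, Ndc80 and Spc25 were within the controls there, and Cenpa, Kif23 and Anln had mutants 2 to 4 overlapping the controls. Foxm1, Incenp, Spc24, Kif2c and Prc1 were among the 32 but had mutant replicate 4 above mutant replicate 2. These shares describe the set, whose genes share their libraries and are not replicates of one another.

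A pair of promoter elements is known for genes of this class, the cell cycle genes homology region (CHR), bound by MuvB complexes, and the CCAAT box, bound by NF-Y. RefSeq promoter windows (GRCm38.p6, 250 bases before to 50 after the start) were searched on both strands for the CHR as TTTGAA or TTCGAA and for CCAAT. Windows were found for 33 of the 40 genes, 36 windows in all, of which 27 start within 50 bases of the GENCODE gene start. A CHR match was in 28 of the 36 windows (77.8%), against 19.2% of all 32851 windows and 14.2% of the windows of tested genes. CCAAT was in 27 (75.0%, against 37.4% and 37.3%), at least 2 copies in 19 (52.8%, against 11.7% and 13.6%), and both elements in 25 (69.4%, against 7.52% and 5.88%). TTCGAA reads the same on both strands and counts once. These are matches of letters and show no binding. The genes were chosen by name from a class known for these elements, so high shares could be foreseen. Whether the elements relate to the levels in these libraries was not tested. The sequences below are those of Cdk1 and Ccnb2, which follow the common pattern, of Top2a, which has the most CHR matches, and of Kif18a and Anln, which lack one or both. Capitals mark the matches on either strand, and each sequence is written 5′ to 3′ along the gene's strand.
Cdk1 (chr10:69352863-69353162, minus strand): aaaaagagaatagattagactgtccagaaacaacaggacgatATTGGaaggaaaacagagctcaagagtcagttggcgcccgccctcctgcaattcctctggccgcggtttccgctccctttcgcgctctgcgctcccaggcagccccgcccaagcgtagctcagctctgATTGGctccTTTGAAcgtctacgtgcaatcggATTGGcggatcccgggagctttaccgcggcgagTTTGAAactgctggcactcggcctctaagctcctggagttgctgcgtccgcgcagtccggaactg
Ccnb2 (chr9:70421505-70421804, minus strand): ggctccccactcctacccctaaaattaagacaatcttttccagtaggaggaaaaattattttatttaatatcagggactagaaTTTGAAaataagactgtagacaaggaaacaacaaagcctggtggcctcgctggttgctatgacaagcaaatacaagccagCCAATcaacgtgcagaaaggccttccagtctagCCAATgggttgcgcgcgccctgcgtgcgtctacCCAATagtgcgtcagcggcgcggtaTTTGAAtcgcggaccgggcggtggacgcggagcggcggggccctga
Top2a (chr11:99024140-99024439, minus strand): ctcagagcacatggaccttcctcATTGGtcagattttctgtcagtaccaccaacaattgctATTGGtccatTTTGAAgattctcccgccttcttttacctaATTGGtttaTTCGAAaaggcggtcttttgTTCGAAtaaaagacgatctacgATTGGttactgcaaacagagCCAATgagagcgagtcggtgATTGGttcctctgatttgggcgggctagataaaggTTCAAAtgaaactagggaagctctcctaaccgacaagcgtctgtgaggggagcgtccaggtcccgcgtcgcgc
Kif18a (chr2:109280488-109280787, plus strand): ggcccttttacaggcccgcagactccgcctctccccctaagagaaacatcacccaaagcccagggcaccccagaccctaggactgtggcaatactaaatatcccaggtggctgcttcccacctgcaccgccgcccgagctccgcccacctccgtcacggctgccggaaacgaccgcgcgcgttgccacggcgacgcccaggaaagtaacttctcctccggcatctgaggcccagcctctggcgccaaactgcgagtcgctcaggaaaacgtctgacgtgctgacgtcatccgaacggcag
Anln (chr9:22389157-22389456, minus strand): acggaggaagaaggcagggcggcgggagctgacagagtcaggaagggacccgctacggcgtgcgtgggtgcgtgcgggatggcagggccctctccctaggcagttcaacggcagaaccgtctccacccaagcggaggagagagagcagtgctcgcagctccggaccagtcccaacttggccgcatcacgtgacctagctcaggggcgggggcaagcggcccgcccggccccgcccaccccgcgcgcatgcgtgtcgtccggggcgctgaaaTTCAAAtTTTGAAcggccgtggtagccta
Cdk1 and Ccnb2 each hold 2 CHR matches and 3 CCAAT matches, and Top2a holds 4 and 6. Kif18a has neither in this window, and Anln has 2 CHR matches and no CCAAT.

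The comparison of mutants with controls asks which mitotic transcripts differ between the mutant mice and the control pools. It cannot tell the deletion of Brg1 apart from library set and pooling. With all libraries, 2 of the 40 genes rose, Kif18a and Pttg1, and 0 fell (quasi-likelihood test of edgeR, adjusted p under 0.05 by Benjamini-Hochberg over 14610 genes). That is 5% of the genes, close to the 5.37% of all tested genes called higher, with 6.18% called lower and 11.5% in either direction. At an unadjusted p under 0.05 there were 7, of which 0 were lower. The share of all tested genes at that level was not counted. Counts at an unadjusted p, here and below, thus have no background beside them and are no result about the set. The other 38 had adjusted p from 0.0691 to 0.741. The log2 fold change was above 0 for 39 of 40 genes (36 with limma-voom), with a median log2 fold change of 1.33 against 0.06 over all tested genes. These genes share their libraries, so the 39 are not independent. Scaling by total gene count shifted the median of all genes to 0.41 and that of the 40 genes to 1.72. It also moved the share of all called genes that were higher from 46.5% to 80.5% (62.6% with upper-quartile scaling). DESeq2 called 5 higher (against 12.2% of all tested genes), limma-voom 2 (5.35%) and total count scaling 5 (15.1%). In the authors' deposited table, 7 of the 40 were higher at an adjusted p under 0.05 and 0 lower, against 8.85% of its genes called higher. The 7 were Pttg1, Spc25, Kif18a, Kif2c, Nusap1, Kif20a and Prc1.

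Without mutant replicate 1, 37 of the 40 genes rose and 0 fell, by 1.86-fold to 8.58-fold with a median of 3.43-fold (edgeR adjusted p from 0.00482 to 0.0467). That is 92.5% of the genes, against 15.5% of the 14903 genes tested there that were called higher, 14.0% called lower and 29.5% in either direction. The genes that did not pass were Cenpa, Kif23 and Anln. The median standard error over the 40 genes was 0.89 with all libraries and 0.33 without mutant replicate 1, whereas over all tested genes it was 0.35 and 0.30. Mutant replicate 1 lay below every control for 35 of the 40 genes. Leaving it out therefore raises the fold change of those genes and narrows their spread by itself. The p-values without it, here and below, describe the remaining libraries and are no independent support for an effect of genotype. Leaving out any other library lowered the number of calls over all genes as well. None of the 40 genes passed when mutant replicate 2 or 3, or control replicate 1, 2 or 3, was left out (edgeR, with 5, 4, 4, 4 and 5 at an unadjusted p under 0.05), and Kif18a alone passed without mutant replicate 4. The share of all tested genes called higher was 2.62%, 1.71% and 2.59% without mutant replicate 2, 3 or 4, and 0.324%, 0.375% and 0.296% without control replicate 1, 2 or 3. These counts of 0 and 1 among 40 genes are near that background and are no result about the mitotic genes. With all libraries but with a weight for each library, limma-voom called 20 higher (against 16.8% of all tested genes), the lowest weight being that of mutant replicate 1 at 0.215.

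**Figure D2:**
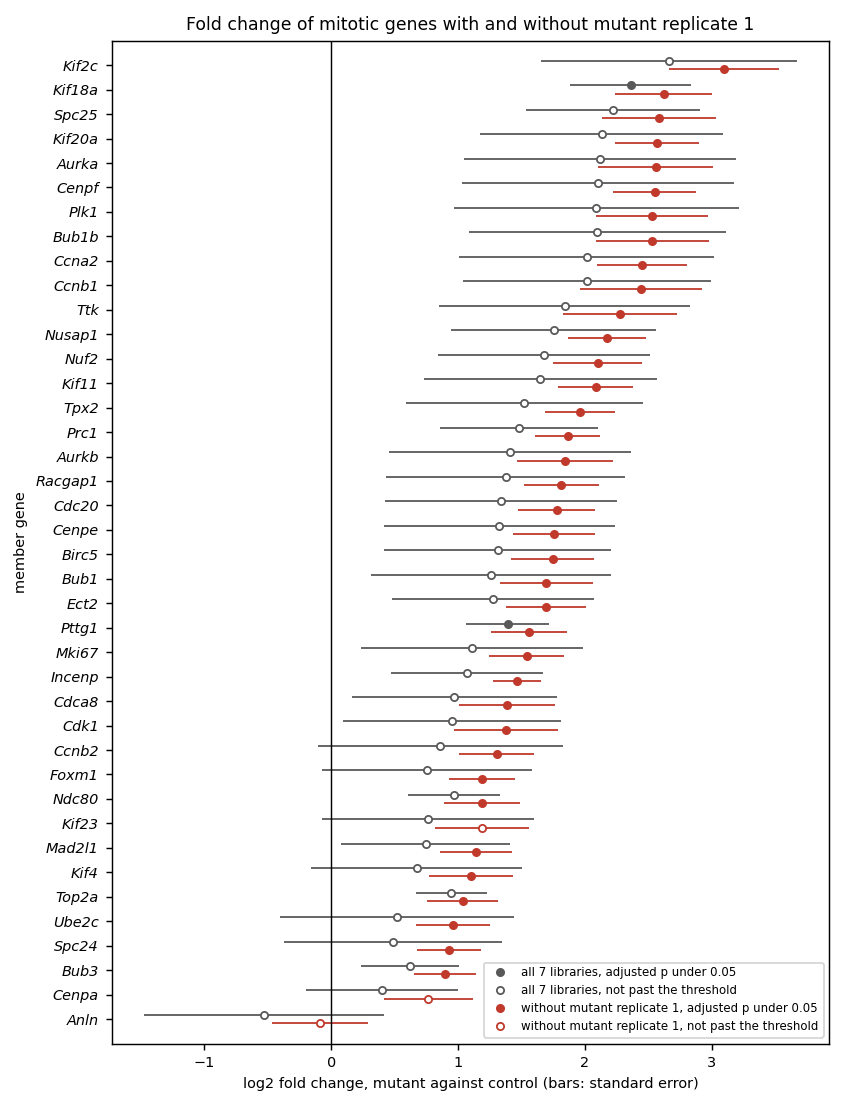
Log2 fold change of each of the 40 genes, mutant against control, from edgeR with all 7 libraries (grey) and without mutant replicate 1 (red), with bars of 1 standard error. Filled points pass an adjusted p of 0.05: Kif18a and Pttg1 in grey, and 37 genes in red, with Kif2c furthest up and Anln at the bottom.

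Proliferation markers and the transcription factor of the programme come first. Mki67 (ENSMUSG00000031004.8, chromosome 7 from 135689784 to 135716361 on the minus strand of GRCm38), which coats mitotic chromosomes, stood at 12.3, 268, 368 and 193 CPM in mutant replicates 1 to 4 and at 72.4, 91.7 and 128 CPM in the controls. Top2a (ENSMUSG00000020914.17, chromosome 11 from 98992943 to 99024189, minus strand), the topoisomerase that untangles sister chromatids, had 269.7, 281, 405 and 247 CPM in mutants, and controls had 115, 141 and 212 CPM. These genes thus differ in mutant replicate 1, where Mki67 is the lowest of all libraries while Top2a is above every control. Mki67 differed between groups by 1.11 ± 0.87 SE on the log2 scale (edgeR adjusted p = 0.425) and rose 2.91-fold without mutant replicate 1 (edgeR adjusted p = 0.0116). The ratio of Mki67 to Top2a was 0.0454 in mutant replicate 1, 0.782 to 0.955 in the other mutants and 0.603 to 0.652 in the controls. Top2a made up 59.4% of the summed level of the 40 genes in mutant replicate 1, against 11.4% to 16.0% in the other libraries. Without Top2a that library was at 184 CPM for the other 39 genes, against a control mean of 847 CPM. Top2a was higher by 0.95 ± 0.28 SE on the log2 scale with no overlap between groups, and did not pass (edgeR adjusted p = 0.0691, and 0.0325 without mutant replicate 1). The call depended on the tool and scaling, with adjusted p = 0.0156 by DESeq2, 0.0408 after upper-quartile scaling and 0.0249 after scaling by total count. In the authors' deposited table, also from DESeq2, Top2a did not pass (adjusted p = 0.0789). Foxm1, which activates many of these genes, was at 1.80, 30.8, 47.7 and 33.0 CPM in the mutants and 15.2, 13.2 and 21.9 CPM in the controls. Its groups overlap through mutant replicate 1 alone, and it rose 2.28-fold without that library (edgeR adjusted p = 0.0171).

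Cyclins and the kinases of mitotic entry followed the common order. Ccna2, cyclin A2, was at 2.498, 99.99, 127 and 49.1 CPM in the mutants against 13.7, 17.2 and 20.8 CPM in the controls. Ccnb1 and Ccnb2, the B cyclins, and their partner Cdk1 stood at 1.33, 1.09 and 3.44 CPM in mutant replicate 1, against 17.5 to 79.6 CPM in the other mutants. With that library left out, Ccna2 and Ccnb1 rose 5.47-fold and 5.44-fold, Ccnb2 2.47-fold and Cdk1 2.60-fold (edgeR adjusted p = 0.00620, 0.0124, 0.0192 and 0.0434). Ccnb1 shares 23.4% of its 50-base words with other transcripts, so its counts are uncertain. Top2a, Foxm1, Tpx2, Ndc80, Nusap1 and Anln overlap another annotated gene on the same strand, and reads shared with it would be missing from their counts. Plk1, the polo kinase that drives entry and spindle assembly, had the widest span of the set. Its 8 reads in mutant replicate 1 stand for 0.625 CPM, beside 41.0, 71.4 and 29.6 CPM for the other mutants and 4.48, 9.50 and 11.1 CPM for the controls, and mutant replicate 3 was 114 times mutant replicate 1. Aurka, the kinase of spindle poles, had 0.390 CPM (5 reads) in mutant replicate 1, while the other mutants had 12.6 to 29.6 CPM. Tpx2, which activates Aurora A on microtubules, had 2.42 CPM and 53.5 to 105.6 CPM. Plk1, Aurka and Tpx2 rose 5.79-fold, 5.89-fold and 3.89-fold without mutant replicate 1 (edgeR adjusted p = 0.00922, 0.00968 and 0.00568), and none passed with all libraries (adjusted p from 0.224 to 0.308).

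**Figure D3:**
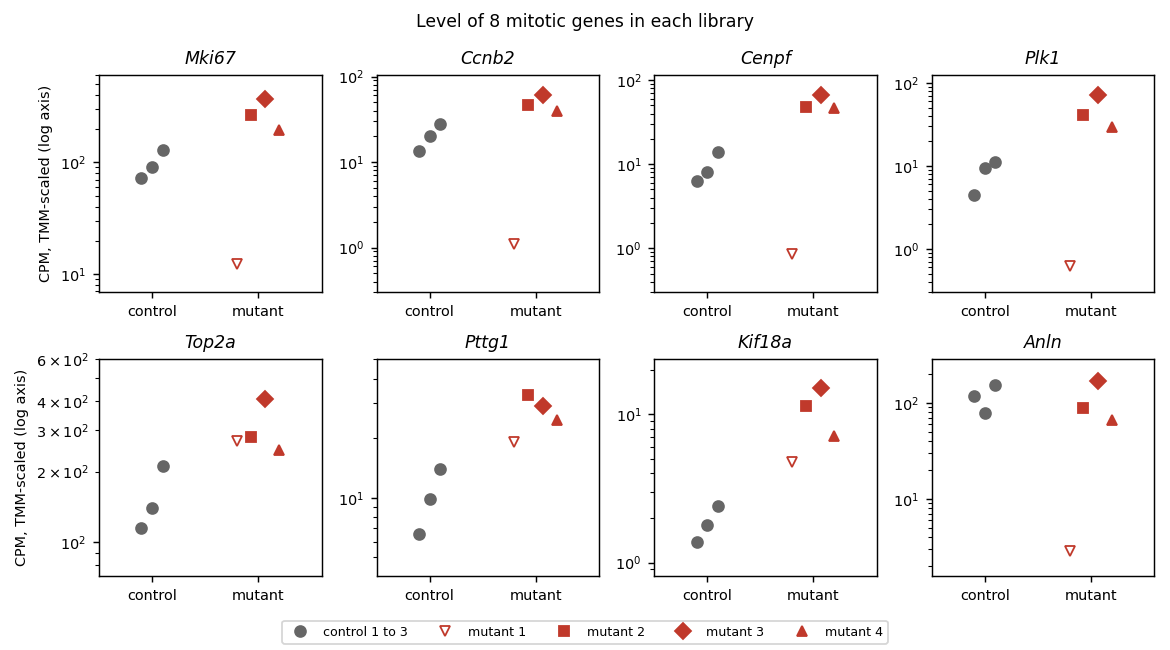
Level of 8 of the genes in each library, in CPM of TMM-scaled library size on a log axis whose range differs between panels; grey points are control replicates 1 to 3, red marks the 4 mutants, and the open triangle is mutant replicate 1. In Mki67, Ccnb2, Cenpf and Plk1 the open triangle lies below all controls, in Top2a, Pttg1 and Kif18a it lies above them, and in Anln the other 3 mutants overlap the controls.

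The chromosomal passenger complex corrects faulty attachments and later guides cytokinesis, with Aurora B (Aurkb) as its kinase and INCENP, survivin (Birc5) and borealin (Cdca8) as its other subunits. All 4 genes lay above the controls in mutant replicates 2 to 4 and below them in mutant replicate 1. The rises with that library left out were 3.59-fold for Aurkb, 2.76-fold for Incenp, 3.35-fold for Birc5 and 2.61-fold for Cdca8 (edgeR adjusted p from 0.00482 to 0.0325), and none passed with all libraries (adjusted p from 0.264 to 0.451). Incenp spanned less than its partners, at 10.8, 61.9, 86.2 and 71.2 CPM in the mutants and 26.1, 24.0 and 31.9 CPM in the controls. Mutant replicate 3 was 8.0 times mutant replicate 1 for Incenp, and 20.9 to 47.5 times for the other 3 subunits.

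Of the 5 genes of the spindle checkpoint, Bub1b (BubR1, which holds back the anaphase promoting complex) had the largest fold change. It stood at 1.87, 48.6, 91.3 and 44.6 CPM in the mutants against 5.32, 12.6 and 14.7 CPM in the controls, and rose 5.79-fold without mutant replicate 1 (edgeR adjusted p = 0.00942). Ttk, the kinase also called MPS1 that starts checkpoint signalling, rose 4.84-fold and the kinase Bub1 3.24-fold in the same fit (edgeR adjusted p = 0.0129 and 0.0167). Bub3, which carries BUB1 and BUBR1 to kinetochores, had the smallest span among them. Its level was 21.1, 54.5, 66.3 and 40.6 CPM in the mutants and 26.1, 24.9 and 38.0 CPM in the controls, 1.41-fold below the control mean in mutant replicate 1. Bub3 rose 1.86-fold, and the checkpoint protein Mad2l1 2.21-fold, without that library (edgeR adjusted p = 0.0322 and 0.0246). With all libraries the 5 had adjusted p from 0.205 to 0.486.

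Anaphase begins when CDC20 activates the anaphase promoting complex, UBE2C supplies it with ubiquitin, and securin (Pttg1) is destroyed. Pttg1 (ENSMUSG00000020415.16, chromosome 11 from 43420250 to 43426251, minus strand) was measured at 19.1, 33.2, 29.0 and 24.7 CPM in the mutants, against 6.53, 9.82 and 13.9 CPM in the controls. All 4 mutants were above all controls, and Pttg1 rose 2.62-fold (log2 fold change 1.39 ± 0.33 SE, edgeR adjusted p = 0.0374), and 2.95-fold without mutant replicate 1 (adjusted p = 0.0118). It was the highest in mutant replicate 2, not in mutant replicate 3. The call was lost when mutant replicate 2, 3 or 4 was left out (adjusted p = 0.0712, 0.0818 and 0.0673), likewise for control replicate 1, 2 or 3 (0.128, 0.130 and 0.0806), and with no filter on low counts (0.0577). Cdc20 and Ube2c had 2.26 and 2.03 CPM in mutant replicate 1 and 51.8 to 89.9 CPM in the other mutants. Both rose when mutant replicate 1 was left out, by 3.43-fold and 1.95-fold (edgeR adjusted p = 0.00870 and 0.0467), from control means of 19.5 and 37.5 CPM. Cdc20 shares 10.4% of its words with other transcripts and is uncertain. Ube2c was 18.5-fold below the control mean in mutant replicate 1.

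At the kinetochore, the 4 subunits of the NDC80 complex, which binds spindle microtubules as a unit, did not keep to one pattern in mutant replicate 1. Ndc80 was at 12.1, 28.3, 24.95 and 15.2 CPM in the mutants and 7.95, 9.82 and 13.1 CPM in the controls. Spc25 had 6.01, 28.3, 51.2 and 15.8 CPM in mutants, and 4.002, 5.12 and 7.08 CPM in controls. Both were within the controls in mutant replicate 1, whereas Nuf2 was 3.82-fold and Spc24 14.5-fold below the control mean there, at 1.25 and 0.859 CPM. With all libraries the log2 fold changes were 0.97 ± 0.36 SE for Ndc80, 1.68 ± 0.84 SE for Nuf2, 0.49 ± 0.86 SE for Spc24 and 2.23 ± 0.69 SE for Spc25, and none passed (edgeR adjusted p = 0.121, 0.217, 0.735 and 0.0767). DESeq2 with all libraries called Spc25 higher (adjusted p = 0.00592), but not Ndc80, Nuf2 or Spc24 (0.0574, 0.109 and 0.719). All 4 rose without mutant replicate 1, by 2.28-fold, 4.29-fold, 1.90-fold and 6.0-fold (edgeR adjusted p from 0.00814 to 0.0333).

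The large coiled-coil protein gene Cenpf was at 0.859, 48.3, 66.9 and 46.4 CPM in the mutants and 6.27, 8.13 and 13.9 CPM in the controls, and rose 5.86-fold without mutant replicate 1 (edgeR adjusted p = 0.00482). Cenpe, a kinesin that moves chromosomes to the spindle equator, rose 3.39-fold in that fit (edgeR adjusted p = 0.0104). Cenpa, the histone H3 variant that marks centromeres, passed neither fit (edgeR adjusted p = 0.687, and 0.138 without mutant replicate 1). It stood at 14.4, 104.4, 83.5 and 42.4 CPM in the mutants and 41.3, 35.9 and 62.0 CPM in the controls, with mutant replicate 4 inside the control range.

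Among spindle motors and microtubule-binding genes, Kif18a (ENSMUSG00000027115.14, chromosome 2 from 109280738 to 109341747, plus strand) was higher in every mutant. This kinesin damps the oscillation of chromosomes at the metaphase plate. Its level was 4.76, 11.4, 15.0 and 7.18 CPM in the mutants and 1.37, 1.80 and 2.40 CPM in the controls, without overlap, and it rose 5.15-fold (log2 fold change 2.36 ± 0.48 SE, edgeR adjusted p = 0.0258) and 6.16-fold without mutant replicate 1. The call held when mutant replicate 1 or 4 was left out (adjusted p = 0.00620 and 0.0431). It was lost when mutant replicate 2 or 3 was left out (0.0506 and 0.0563), likewise for control replicate 1, 2 or 3 (0.117, 0.103 and 0.0910). Mettl15 overlaps Kif18a on the opposite strand. The reverse-stranded counts held 94.8% to 95.6% of the stranded gene reads, so they may not keep out every Mettl15 read. The part of Mettl15 in the Kif18a counts was not tested. Together with Top2a and Pttg1, Kif18a makes 3 genes whose mutant and control ranges did not overlap, which is 7.50% of the set against 15.4% of all tested genes that were higher without overlap.

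Kif2c, a kinesin that removes tubulin from microtubule ends, had the largest fold change of the set, at 0.625, 14.6, 23.8 and 17.5 CPM in the mutants and 1.05, 2.75 and 2.86 CPM in the controls. It rose 8.58-fold without mutant replicate 1 (edgeR adjusted p = 0.00557) and did not pass with all libraries (log2 fold change 2.66 ± 1.01 SE, edgeR adjusted p = 0.124). DESeq2 with all libraries called it higher (adjusted p = 0.0187). Kif11, the motor that pushes spindle poles apart, Nusap1, which bundles microtubules, and the chromokinesin Kif4 rose 4.25-fold, 4.52-fold and 2.15-fold without mutant replicate 1 (edgeR adjusted p = 0.00568, 0.00567 and 0.0455).

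The genes of the central spindle and of cytokinesis held both the common pattern and its clearest exception. Kif20a, the kinesin that carries Aurora B to the midzone, rose 5.95-fold without mutant replicate 1, the microtubule cross-linker Prc1 3.64-fold, Ect2, which activates RhoA at the cleavage furrow, 3.24-fold, and its partner Racgap1 3.52-fold (edgeR adjusted p from 0.00482 to 0.0105). Prc1 was at 13.9 CPM in mutant replicate 1, 1.87-fold below the control mean, and at 75.6 to 119.4 CPM in the other mutants. Kif23, which forms the centralspindlin complex with RACGAP1, was at 5.07, 83.9, 119.5 and 54.6 CPM in the mutants and 26.7, 31.8 and 57.7 CPM in the controls, with mutant replicate 4 below control replicate 3. Its adjusted p was 0.571 with all libraries and 0.05001 without mutant replicate 1, just outside the threshold. Anln (ENSMUSG00000036777.8, chromosome 9 from 22332012 to 22389188, minus strand) encodes anillin, a scaffold of the contractile ring. It stood at 2.89, 87.6, 168 and 65.5 CPM in the mutants and 119, 78.5 and 153 CPM in the controls. Mutant replicate 1 was 40.4-fold below the control mean, the deepest of the 40 genes, while the other mutants straddled the controls. Its log2 fold change was −0.53 ± 0.95 SE with all libraries and −0.09 ± 0.38 SE without mutant replicate 1 (edgeR adjusted p = 0.741 and 0.876), the only negative values in the set.

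Levels per kilobase of exon show where these genes stand against each other. In the controls the highest mean levels per length were those of Top2a (17.3 CPM per kb), Ube2c (14.4), Ccnb2 (13.3), Anln (12.9) and Cdc20 (10.4), and the lowest that of Kif18a (0.189). The median over the 40 genes was 3.31 CPM per kb in controls, 10.6 in mutant replicates 2 to 4 and 0.511 in mutant replicate 1. In mutant replicate 1 Top2a kept 29.9 CPM per kb and Pttg1 9.52, while Cenpf was the lowest of the set at 0.0556. Mutant replicate 3 exceeded mutant replicate 1 by a median of 33.8 times over the 40 genes, from 1.502 times for Top2a to 114 times for Plk1. The median over all tested genes was 0.9996, with 0.1 CPM added there only. TMM scaling by itself largely sets that median, so it is no measured background.

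Genes of neighbouring steps were counted from further lists. Over all tested genes 5.37% were called higher and 6.18% lower with all libraries, and 12.2% and 11.2% by DESeq2. Without mutant replicate 1 the edgeR shares were 15.5% and 14.0%. Of 38 kinetochore and centromere genes outside the set, 0 rose and 1 fell with all libraries, with 5 higher and 1 lower at an unadjusted p under 0.05 and 3 higher and 1 lower by DESeq2. Without mutant replicate 1, 18 rose and 2 fell. The gene that fell, Mad2l1bp, encodes p31comet, which silences the spindle checkpoint. It was at 28.3, 13.5, 12.1 and 13.1 CPM in the mutants and 81.4, 75.1 and 86.2 CPM in the controls, 4.83-fold lower (log2 fold change −2.27 ± 0.33 SE, edgeR adjusted p = 0.0104, and 0.00119 without mutant replicate 1). Here mutant replicate 1 lay with the other mutants, below all controls.

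Of 18 other genes of the anaphase promoting complex and its regulators, 2 rose with all libraries, against 5.37% of all tested genes called higher. Without mutant replicate 1, 7 rose, against 15.5%. The 2 called with all libraries are the subunits Anapc10 (2.53-fold) and Cdc23 (2.42-fold), with edgeR adjusted p = 0.0309 and 0.0186. Their edgeR adjusted p were 0.0159 and 0.00992 without mutant replicate 1. Of 17 other mitotic entry genes 1 rose, Mastl, the greatwall kinase that restrains a phosphatase opposing CDK1. It was at 16.9, 37.1, 38.0 and 24.8 CPM in the mutants and 10.5, 8.66 and 9.30 CPM in the controls (log2 fold change 1.62 ± 0.32 SE, edgeR adjusted p = 0.0246, and 0.00397 without mutant replicate 1), so that all mutants lay above all controls. In that smaller fit 10 of the 17 rose and 1 fell.

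Of 38 other spindle, centrosome and cytokinesis genes none passed with all libraries (edgeR, with 7 higher and 1 lower at an unadjusted p under 0.05, and 4 higher and 1 lower by DESeq2). With mutant replicate 1 left out, 28 rose and 1 fell, against 15.5% and 14.0% of all genes tested there. The most abundant, Numa1, which tethers microtubules at spindle poles, fell in that fit (log2 fold change −0.50, edgeR adjusted p = 0.0385) and had adjusted p = 0.0571 with all libraries. Of 36 DNA replication and S-phase genes none passed with all libraries, 0 did so at an unadjusted p under 0.05 and 0 by DESeq2, and 13 rose without mutant replicate 1.

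Of 28 regulators of the E2F, DREAM and MuvB pathways 3 rose and 2 fell with all libraries, against 5.37% and 6.18% of all tested genes. Without mutant replicate 1, 10 rose and 2 fell, against 15.5% and 14.0%. Cyclin D2 (Ccnd2), which drives passage through G1, rose 13.1-fold, from 4.49 to 7.32 CPM in controls to 23.0, 57.2, 137.8 and 68.7 CPM in the mutants (log2 fold change 3.71 ± 0.62 SE, edgeR adjusted p = 0.0161, and 0.00271 without mutant replicate 1). The CDK inhibitor Cdkn1a fell (log2 fold change −1.35 ± 0.29 SE, edgeR adjusted p = 0.0297), and the MuvB subunit Rbbp4 rose 1.72-fold (edgeR adjusted p = 0.0417). These p were 0.0163 and 0.0169 without mutant replicate 1. For these 3 genes mutant replicate 1 was on the same side of the controls as the other mutants.

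**Figure D4:**
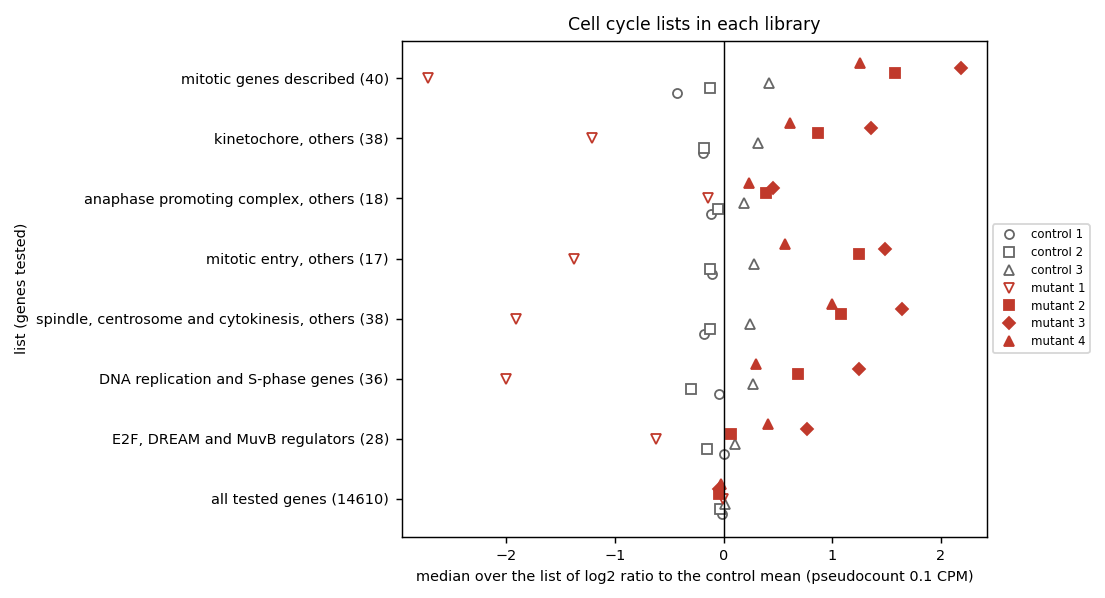
Median over each list of the log2 ratio of CPM to the control mean (0.1 CPM added), 1 point per library; the number of genes tested is in brackets. Mutant 1 (open red triangle) lies at −2.72 for the 40 mitotic genes and −2.002 for DNA replication genes but −0.15 for the anaphase promoting complex list, and mutant 3 reaches 2.18 for the mitotic genes.

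Across these lists the libraries kept the same ends, with distances that differed. The median log2 ratio to the control mean over the 40 mitotic genes came to −2.72 for mutant replicate 1, but to 1.57, 2.18 and 1.26 for the other mutants. For DNA replication genes mutant replicate 1 was at −2.002 and the other mutants at 0.68, 1.25 and 0.29. Over all tested genes it lay between −0.04 and 0.01 in every library, which TMM scaling by itself largely sets.

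Markers of other cell types were present below the epithelial sums, the largest being those of stromal fibroblasts and leukocytes. For scale, the 40 mitotic genes summed to 454 CPM in mutant replicate 1. Of 8 stromal fibroblast markers, whose sum ranged from 162 to 472 CPM across mutants (controls 539 to 690 CPM), 1 was called lower. Of 8 leukocyte markers 7 were tested and 0 called (edgeR), with sums of 262 to 442 CPM (controls 242 to 396 CPM) and Cd3e at 0 reads in mutant replicate 1. Smooth muscle markers summed to 75.2 CPM in mutant replicate 1, 7.66 to 30.5 CPM in the other mutants and 66.4 to 107 CPM in controls. Endothelial markers summed to 4.44 to 18.0 CPM, against 16.1 to 19.96 CPM in controls. The 6 markers of red blood cells summed to 6.32 CPM in mutant replicate 1, above the other mutants at 0.0766 to 1.09 CPM and the controls at 0.895 to 1.74 CPM. Of them, the globin genes Hba-a1, Hba-a2 and Hbb-bt had 0 reads in all mutants. The part of these cells in the mitotic levels was not tested.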

How the data were processed

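Per the labels, a KAPA kit that keeps strand gave mRNA libraries. The submitters' processing notes name STAR, the build mm10, cutadapt, Trim Galore, FastQC and DESeq2, without versions. The authors deposited whole-number STAR counts of reads per gene, not normalized, and the result of their own comparison, with a log2 fold change and an adjusted p-value per gene. Reverse-stranded counts were taken, which held 94.8% to 95.6% of the stranded gene reads. Unmapped, multimapping, ambiguous and geneless reads (3.90% to 6.70%, 8.45% to 11.2%, 0.827% to 1.29% and 10.5% to 14.7% of a library) stayed out of library sizes. Of 53379 gene IDs 53274 matched GENCODE M21 (GRCm38), which gave symbols, positions and exonic lengths.

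Genes were kept with filterByExpr (0.748 CPM in at least 3 libraries) and tested by edgeR 4.0.16 (quasi-likelihood, under R 4.3.3) after TMM scaling, with genotype as the only term, two-sided, adjusted over all tested genes. Standard errors are the fold change over the root of F. CPM are per 1000000 reads of TMM-scaled library size. Alternatives used DESeq2 1.42.0 and limma 3.58.1. The test was tried on simulated counts, drawn gene by gene with no library set apart from its group. That setting does not cover a library such as mutant replicate 1. No pair of replicates agreed within sampling noise (lowest chi-square per degree of freedom 54.9). A gene was called uncertain when over 10% of its 50-base words occur in other genes' transcripts. Genes outside the set were named by rule, namely up to 3 per list that passed the test, by size of change among genes averaging 1 CPM or more, or else the most abundant. The genes and lists were chosen with earlier results of these data known.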

Additional observations from a re-analysis of the deposited data

Results flagged for a closer look

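In 12 of the 40 genes, 1 mutant library was far below the other 3 on the log2 CPM scale, and in all 12 it was mutant replicate 1. The measure is the gap between that library and the nearest mutant, as a share of the range of the 4 mutants, set against Dixon's critical value for 4 samples. The share was 0.913 for Cenpf, 0.893 for Spc24, 0.885 for Ccnb2, 0.864 for Foxm1, 0.859 for Kif2c and Ube2c, 0.856 for Racgap1, 0.849 for Cdc20, 0.841 for Incenp, 0.834 for Cenpe, 0.833 for Kif11 and 0.8292 for Nuf2. That is 30% of the 40 genes, while mutant replicate 1 was low in this way for 259 of all 14610 tested genes (1.77%), and any mutant library stood apart, high or low, for 5.71%. Chance alone marks about 1 in 20 groups, and these genes share their libraries, so the 12 are not independent. Top2a, Pttg1, Kif18a, Ndc80 and Spc25 are not among them.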

How the results depend on the processing

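All alternatives kept the number of the 40 genes called lower at 0 (edgeR and the other tools, with 0 lower at an unadjusted p under 0.05 with all libraries), and the median log2 fold change of the 40 genes stayed above 0, between 0.67 and 1.75. The number called higher, 2, was 5 with DESeq2, 20 with library weights in limma-voom, 5 with total count scaling and 1 with no filter on low counts, and ran from 0 to 37 when 1 library was left out. Over all genes the 1687 calls became 3423 with DESeq2, 5219 with library weights, 2731 with total count scaling and 1057 with no filter, and ran from 133 to 4403 when 1 library was left out (highest without mutant replicate 1, lowest without control replicate 1). With the replicate number as a block there were 0 calls among the 40 genes (5 at an unadjusted p under 0.05) and 2 over all genes. Same-numbered mutant and control libraries share only a number: their deviations from the group means correlated at −0.02, −0.362 and 0.155 over genes, and mutant replicates 1 and 2 correlated best with another number. Ccnb2, Ube2c and Spc24 turned negative with limma-voom (−0.0023, −0.29 and −0.23) and with the replicate block (−0.044, −0.32 and −0.27), all far from the threshold. The cause of these changes was not tested, except that leaving out a library leaves fewer samples. Genes at few reads in mutant replicate 1, such as Aurka, Ttk, Plk1 and Kif2c (5 to 8 reads), have imprecise levels there.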
